A study of Mus musculus with 6 samples.

Results

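The 8 genes described here are mast cell genes of the mouse dorsal root ganglion (DRG). They were chosen by symbol, for what their products do in mast cells: the granule proteases *Cpa3*, *Mcpt4*, *Cma1* and *Tpsb2*, the IgE receptor chains *Fcer1a* and *Ms4a2*, the receptor *Kit* and the histamine-forming enzyme *Hdc*. All 8 were found among the 48440 gene rows of the table, and all 8 had enough reads to enter the test, which covered 18593 genes.

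Libraries were made from DRGs of wild-type male mice after microinjection of AAV5, an adeno-associated viral vector, into the unilateral L3/4 DRGs. The 3 AAV5-*Gfp* libraries came from mice that received virus carrying *Gfp*, and the 3 AAV5-*V1+V2* libraries from mice given AAV5-*V1* mixed with AAV5-*V2*, which carry 2 variants of *NIS-lncRNA*, a long noncoding RNA of the DRG. The comparison asked which genes change when *NIS-lncRNA* is raised in the ganglion. The series' description gives the harvest at 5 weeks after microinjection and the comparison at 4 weeks. Strain, age, the promoter of the vectors and the number of mice behind each library are not given with the labels, so that the p-values measure the spread between these libraries, and every group had received a viral injection.

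Mast cells are resident immune cells of connective tissue, and in nerves and ganglia they lie in the connective tissue sheath and around vessels. They mature in the tissue under stem cell factor, the ligand of *Kit*. They store proteases, proteoglycans and histamine in granules and release them when IgE bound to the high-affinity receptor FcεRI is crosslinked by antigen. Histamine and tryptase act on receptors of sensory nerve endings, which is why mast cells are studied in itch and pain.

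The loci are given on GRCm38 with GENCODE annotation. *Cpa3* (ENSMUSG00000001865) lies at chr3:20215620-20242181 on the minus strand and has 11 exons. *Mcpt4* (ENSMUSG00000061068, chr14:56059629-56062313) and *Cma1* (ENSMUSG00000022225, chr14:55941451-55944675) lie close to each other on the minus strand of the same chromosome, each with 5 exons, in the cluster of chymase genes. *Tpsb2* (ENSMUSG00000033825, chr17:25366305-25369098, plus strand) has 5 exons, *Ms4a2* (ENSMUSG00000024680, chr19:11615523-11623719, minus strand) has 7 and *Fcer1a* (ENSMUSG00000005339, chr1:173221284-173227214, minus strand) has 5. *Kit* (ENSMUSG00000005672, chr5:75574916-75656722, plus strand) has 21 exons, and *Hdc* (ENSMUSG00000027360, chr2:126593667-126619299, minus strand) has 12.

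*Mcpt4* and *Cma1* encode the 2 chymases of the set, and their sequences are shown because reads must be assigned to one or the other. Their coding sequences were 66.7% identical. The first stretch of 90 coding bases with the most differences is printed, in which capitals mark the 41 bases at which the pair differs:
Mcpt4 (chr14:56060661-56060750, minus strand, exon 4): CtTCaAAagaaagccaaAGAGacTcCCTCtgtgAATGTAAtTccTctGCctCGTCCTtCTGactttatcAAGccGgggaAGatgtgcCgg
Cma1 (chr14:55942291-55942380, minus strand, exon 4): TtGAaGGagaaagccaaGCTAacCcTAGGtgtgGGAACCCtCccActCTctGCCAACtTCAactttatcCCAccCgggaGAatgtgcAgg
Of all 50-base windows of the principal transcript, 58 of 1059 of *Mcpt4* (5.48%) occurred in another annotated gene, mainly *Cma2*, and 56 of 1025 of *Cma1* (5.46%) in *Gm48934*. No such window was found in the other 6 members, which includes *Tpsb2*, 74.9% identical to its neighbour *Tpsab1* in coding sequence. Read length is not given, so that the values of *Mcpt4* and *Cma1* carry this small uncertainty. In coding sequence *Mcpt4* was closer to *Mcpt1* (86.4% identical) and *Mcpt2* (79.4%) than to *Cma1*. *Mcpt1* and *Mcpt2* had at most 3 reads in a library, and *Cma2* at most 1.

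The sequences before the transcription start are shown because mast cell genes are textbook targets of GATA2, a zinc finger factor that binds GATA motifs. RefSeq promoter entries (GRCm38.p6) were matched for 7 of the 8 genes, all but *Tpsb2*. The motif GATAA on either strand, in capitals below, was found within 250 bases before the start in 5 of these 7 (*Cpa3*, *Mcpt4*, *Cma1*, *Fcer1a* and *Ms4a2*) and not in *Kit* or *Hdc*. It was present in 22.6% of 32851 promoters in the RefSeq table, and the match is a description of letters, not of a bound site. The entries of *Cpa3*, *Mcpt4* and *Ms4a2*, with the motif, and of *Hdc*, without it, are:
Cpa3 (chr3:20242182-20242431, minus strand): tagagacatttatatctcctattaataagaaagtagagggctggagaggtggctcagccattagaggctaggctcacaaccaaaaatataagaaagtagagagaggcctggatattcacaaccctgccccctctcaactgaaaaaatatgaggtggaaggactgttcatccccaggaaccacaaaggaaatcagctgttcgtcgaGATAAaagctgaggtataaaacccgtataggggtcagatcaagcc
Mcpt4 (chr14:56062311-56062560, minus strand): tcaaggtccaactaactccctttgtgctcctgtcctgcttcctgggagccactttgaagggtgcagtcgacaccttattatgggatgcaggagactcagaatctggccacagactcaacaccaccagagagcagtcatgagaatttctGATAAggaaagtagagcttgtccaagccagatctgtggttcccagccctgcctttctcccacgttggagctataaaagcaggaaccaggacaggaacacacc
Ms4a2 (chr19:11623720-11623969, minus strand): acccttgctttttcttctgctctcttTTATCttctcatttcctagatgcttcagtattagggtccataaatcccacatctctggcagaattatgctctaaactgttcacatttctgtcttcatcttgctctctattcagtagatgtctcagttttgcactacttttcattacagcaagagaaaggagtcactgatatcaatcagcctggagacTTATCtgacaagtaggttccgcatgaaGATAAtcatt
Hdc (chr2:126618679-126618928, minus strand): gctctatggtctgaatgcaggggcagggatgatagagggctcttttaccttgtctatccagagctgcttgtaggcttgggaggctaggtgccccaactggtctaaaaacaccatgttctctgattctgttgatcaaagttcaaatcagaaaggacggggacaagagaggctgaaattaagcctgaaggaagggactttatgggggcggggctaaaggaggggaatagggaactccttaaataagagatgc
*Ms4a2* carried the motif 3 times. The RefSeq start used for *Hdc* lies inside the GENCODE locus given above, so that its printed bases fall within the annotated gene. Bases before the GENCODE start of *Hdc* were not searched. *Gata2* itself was measured at a mean of 1.81 ± 0.234 CPM in AAV5-*Gfp* and 1.93 ± 0.0967 CPM in AAV5-*V1+V2* (SD, n = 3), with a log2 fold change of 0.09 (edgeR, adjusted p = 0.723).

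The libraries held 32025612 to 34764282 reads assigned to genes. Levels are given in CPM (reads of a gene scaled to a common library size), with library totals scaled by the TMM method, and each log2 fold change is AAV5-*V1+V2* over AAV5-*Gfp*. It was tested with edgeR's quasi-likelihood test and p-values were adjusted by the Benjamini-Hochberg method over all 18593 genes, with 0.05 as the threshold. The median log2 fold change of all genes was 0.00 after this scaling. Replicate 1 of AAV5-*V1+V2* stood apart from the other libraries of its group, with the highest summed level of leukocyte markers (1098 CPM, against 554 CPM in the lowest of the group) and the lowest of sensory neuron markers (4239 CPM against up to 6281 CPM).

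None of the 8 mast cell genes passed the test in either direction by edgeR. Across the genome 10.1% of the genes tested were called higher and 5.27% lower in AAV5-*V1+V2*. At an unadjusted p under 0.05, 1 of the 8 was higher (*Hdc*) and 0 lower, where 34.7% of all genes passed in either direction. DESeq2 called 1 member higher (*Hdc*) and limma-voom 0. The ranges of the 3 and 3 libraries overlapped for all 8 members, whereas 45.4% of all genes tested had ranges that did not. The log2 fold change was negative for 5 members and positive for 3, and its median over the 8 was -0.10. The 95% confidence interval lay wholly below a 2-fold rise for 6 of the 8 members, all but *Fcer1a* and *Hdc*, and wholly above a fall to 0.5-fold for 7 of the 8, all but *Ms4a2*.

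**Figure D1:**
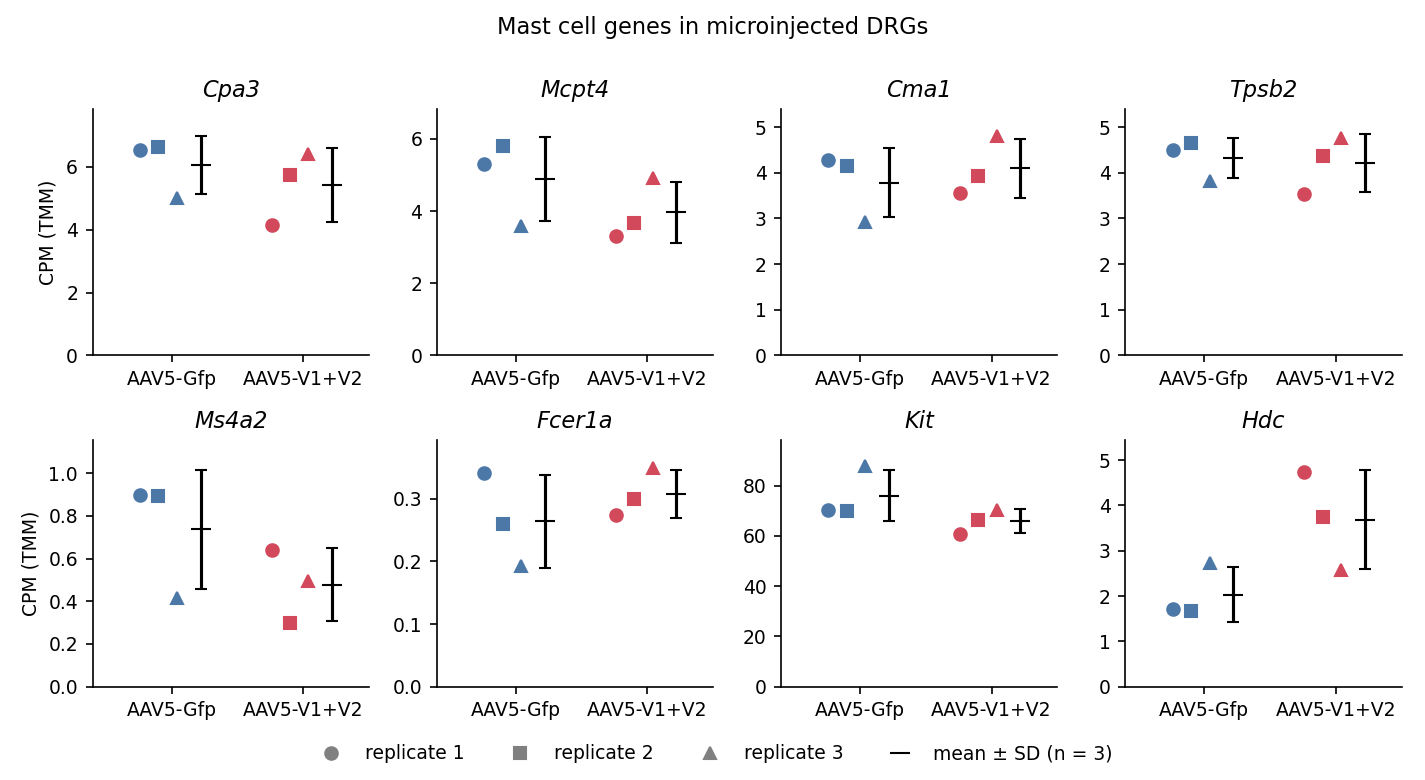
Levels of the 8 mast cell genes in CPM (vertical axes, linear, from 0) in each of the 3 AAV5-*Gfp* and 3 AAV5-*V1+V2* libraries. Points are libraries, shapes the replicate numbers, horizontal lines the group mean and error bars the SD (n = 3). The points of both groups overlap in every panel.

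The proteases are the most abundant products of mature mast cell granules. *Cpa3*, carboxypeptidase A3, which trims peptides from their C-terminal end, had 211, 230 and 156 reads in the AAV5-*Gfp* libraries, in the order of their replicate numbers as for every gene here, and 136, 191 and 220 in the AAV5-*V1+V2* libraries. The means were 6.06 ± 0.919 and 5.43 ± 1.17 CPM (SD, n = 3 each), a log2 fold change of -0.16 ± 0.20 (SE, edgeR, adjusted p = 0.596), with a 95% interval of 0.651- to 1.23-fold. The highest AAV5-*V1+V2* library was thus level with the AAV5-*Gfp* libraries, and the lowest of all 6 was AAV5-*V1+V2* replicate 1.

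*Mcpt4* encodes the main chymase of connective tissue mast cells, a chymotrypsin-like protease. It had 171, 201 and 112 reads in AAV5-*Gfp* and 109, 122 and 169 in AAV5-*V1+V2*, or 4.90 ± 1.16 against 3.97 ± 0.849 CPM. Its log2 fold change was -0.30 ± 0.23 (SE, edgeR, adjusted p = 0.380; 95% interval 0.558- to 1.18-fold). The other chymase, *Cma1*, had 138, 144 and 91 reads in AAV5-*Gfp* and 117, 131 and 165 in AAV5-*V1+V2*. Here AAV5-*V1+V2* replicate 3 held the highest value of the 6 libraries, at 4.81 CPM, and the log2 fold change was 0.12 ± 0.20 (edgeR, adjusted p = 0.703; 95% interval 0.786- to 1.49-fold).

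*Tpsb2*, a tryptase stored as a tetramer on heparin, had 145, 161 and 119 reads in AAV5-*Gfp* and 116, 145 and 163 in AAV5-*V1+V2*. With 4.32 ± 0.443 and 4.21 ± 0.626 CPM its group means were the closest of the 4 proteases, and the log2 fold change was -0.04 ± 0.16 (edgeR, adjusted p = 0.890; 95% interval 0.750- to 1.27-fold). A change of 2-fold in either direction was outside the interval for each of the 4 proteases.

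The 4 proteases ranked the libraries much alike. Each of the 4 was lowest within its group in AAV5-*Gfp* replicate 3 and in AAV5-*V1+V2* replicate 1, and each was highest in AAV5-*V1+V2* replicate 3. Within AAV5-*Gfp*, replicate 2 was highest for 3 of the 4 and replicate 1 for *Cma1*. Summed over the 4 genes, the level was 20.6, 21.2 and 15.3 CPM in AAV5-*Gfp* and 14.5, 17.7 and 20.9 CPM in AAV5-*V1+V2*. The sums averaged 19.1 ± 3.25 and 17.7 ± 3.19 CPM (SD, n = 3), so that the spread within each group was larger than the difference between them. Without AAV5-*V1+V2* replicate 1, which stood apart, none of the 8 members was called by edgeR either (0 at an unadjusted p under 0.05), and *Cpa3* had a log2 fold change of 0.0072 and *Mcpt4* of -0.19. Reads of the 4 granule proteases were thus present in every library. In bulk tissue, the number of mast cells and the RNA per mast cell cannot be told apart.

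The receptor FcεRI binds the constant part of IgE through its alpha chain, *Fcer1a*, and its beta chain, *Ms4a2*, amplifies the signal. Both were near the limit of detection. *Ms4a2* had 29, 31 and 13 reads in AAV5-*Gfp* and 21, 10 and 17 in AAV5-*V1+V2* (0.737 ± 0.277 and 0.478 ± 0.170 CPM). Its log2 fold change of -0.63 ± 0.40 was the most negative of the 8 members and did not pass the test (edgeR, adjusted p = 0.301; 95% interval 0.340- to 1.24-fold).

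*Fcer1a* had 11, 9 and 6 reads in AAV5-*Gfp* and 9, 10 and 12 in AAV5-*V1+V2*, the lowest counts of the set. Its log2 fold change was 0.22 ± 0.34 (edgeR, adjusted p = 0.696), and its interval, 0.668- to 2.02-fold, admits a 2-fold rise. The intervals thus did not exclude a 2-fold rise of *Fcer1a* or a fall of *Ms4a2* to 0.5-fold.

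*Kit*, the receptor tyrosine kinase for stem cell factor, was the most abundant member, with 2264, 2429 and 2740 reads in AAV5-*Gfp* and 2003, 2210 and 2418 in AAV5-*V1+V2*. In CPM the libraries lay at 70.1, 70.1 and 87.8 in AAV5-*Gfp* and at 60.9, 66.4 and 70.5 in AAV5-*V1+V2*, so that only the top AAV5-*V1+V2* library reached the AAV5-*Gfp* range. The log2 fold change was -0.21 ± 0.11 (edgeR, adjusted p = 0.214; 95% interval 0.730- to 1.03-fold). *Kit* is also made by other cells, among them melanocytes and a class of sensory neurons. Within AAV5-*Gfp* its library order was not that of the proteases: it was highest in replicate 3, where all 4 proteases were lowest. Within AAV5-*V1+V2* the order was the same, with *Kit* and each of the 4 proteases rising from replicate 1 to replicate 3.

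Because a class of sensory neurons also makes *Kit*, the neuronal background was set beside it. The 10 sensory neuron markers had a summed level of 6749 to 7225 CPM in AAV5-*Gfp* and 4239 to 6281 CPM in AAV5-*V1+V2*. None of the 10 was called by edgeR in either direction, and their median log2 fold change was -0.30. The lowest p-values were those of the sodium channels *Scn9a* (log2 fold change -0.56, edgeR, adjusted p = 0.0523) and *Scn10a* (-0.59, adjusted p = 0.0542). Of 7 melanocyte markers, *Pmel*, *Tyrp1* and *Sox10* passed the filter, the last of which Schwann cells also express, and none was called, while *Dct*, *Mlana*, *Tyr* and *Slc45a2* had at most 11 reads in a library. The part of neurons in the values of *Kit* was not tested.

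*Hdc*, histidine decarboxylase, makes histamine from histidine and was the member with the largest difference. It had 55, 58 and 85 reads in AAV5-*Gfp* and 156, 125 and 88 in AAV5-*V1+V2*, or 1.70, 1.67 and 2.72 CPM against 4.74, 3.75 and 2.57 CPM. Replicates 1 and 2 of AAV5-*V1+V2* lay above all AAV5-*Gfp* libraries, but replicate 3 lay below AAV5-*Gfp* replicate 3. The log2 fold change was 0.86 ± 0.29 (SE, edgeR, adjusted p = 0.0834; 95% interval 1.14- to 2.90-fold). An exact permutation test over the 6 libraries, two-sided, gave p = 0.2, where 0.1 is the smallest value that 3 against 3 allow.

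The unadjusted p from edgeR was 0.0194. The call on *Hdc* turned on the tool and on single libraries. DESeq2 gave the same log2 fold change of 0.86 with an adjusted p of 0.0421. Without AAV5-*V1+V2* replicate 3 edgeR gave 1.08 with an adjusted p of 0.0320, and without replicate 1 of that group, which stood apart, 0.64 with an adjusted p of 0.167. Over all 14 other analyses of this gene the log2 fold change was 0.64 to 1.12 and the adjusted p 0.0320 to 0.223, by edgeR, DESeq2 or limma-voom.

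The library order of *Hdc* was unlike that of the proteases. In AAV5-*V1+V2* it was highest in replicate 1, where all 4 proteases were lowest, and lowest in replicate 3, where they were highest. *Hdc* is also made by basophils and by neutrophils and their precursors. The 10 neutrophil markers summed to 140 to 160 CPM in AAV5-*Gfp* and 198 to 403 CPM in AAV5-*V1+V2*. Of these 10, 2 were called higher and 0 lower by edgeR, *Csf3r*, the receptor for granulocyte colony-stimulating factor (log2 fold change 1.50, adjusted p = 0.0376), and the granule peptide gene *Camp* (0.92, adjusted p = 0.0485), and the median of the 10 was 0.81. *S100a8* and *S100a9*, the alarmins of neutrophils, had log2 fold changes of 0.84 each (adjusted p = 0.0541 and 0.0598). Of all genes tested, 10.1% were called higher.

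Of 4 basophil markers, the protease genes *Mcpt8* (log2 fold change 0.33, edgeR, adjusted p = 0.631) and *Prss34* (0.11, adjusted p = 0.775) and the receptor gene *Cd200r3* (-0.08, adjusted p = 0.916) were not called. The cytokine gene *Il4*, at 30.2 CPM far above the basophil proteases in AAV5-*Gfp*, was called lower (-0.44, adjusted p = 0.0469). It had 968, 1020 and 970 reads in AAV5-*Gfp* and 600, 785 and 852 in AAV5-*V1+V2*. Which cells these *Il4* reads came from was not tested. No basophil or neutrophil marker was at 0 in all libraries. The part of neutrophils and basophils in the values of *Hdc* was not tested.

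**Figure D2:**
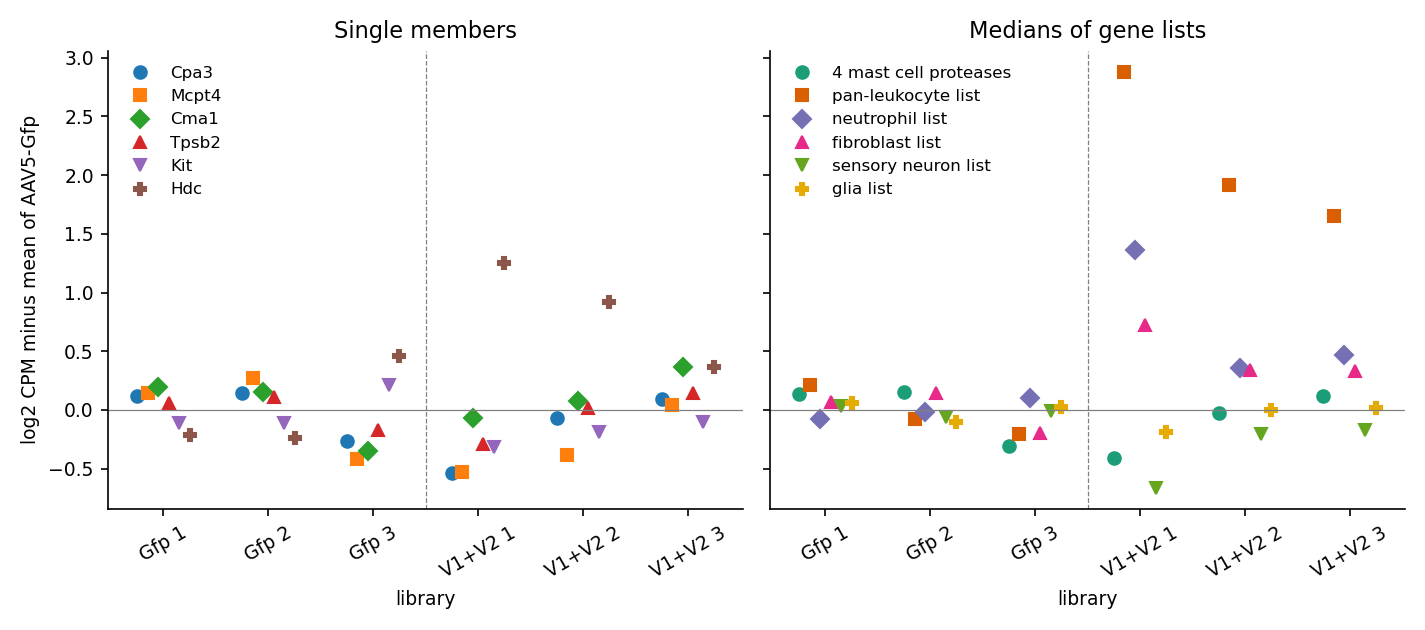
Log2 CPM in each library (horizontal axis) minus the mean of the 3 AAV5-*Gfp* libraries (vertical axis), for 6 single members on the left and as the median over the genes of each list on the right. In AAV5-*V1+V2* replicates 1, 2 and 3 *Hdc* stood at 1.25, 0.92 and 0.37, and the median of the 4 proteases at -0.41, -0.02 and 0.12. The median of the leukocyte markers stood at 2.88, 1.92 and 1.65 there, and that of the neutrophil markers at 1.36, 0.36 and 0.47. In AAV5-*Gfp* replicate 3 *Hdc* stood at 0.46 and the leukocyte median at -0.20.

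Levels per kilobase of the principal transcript allow members to be compared with each other. In AAV5-*Gfp* they ran from 14.6 ± 1.96 CPM per kb for *Kit* to 0.265 ± 0.0745 CPM per kb for *Fcer1a*. Between these lay *Mcpt4* at 4.42 ± 1.05, *Cpa3* at 4.18 ± 0.634, *Tpsb2* at 3.99 ± 0.410 and *Cma1* at 3.52 ± 0.701 CPM per kb, neighbours that did not differ beyond their SDs. *Hdc* (0.850 ± 0.250 CPM per kb) and *Ms4a2* (0.729 ± 0.274 CPM per kb) followed, also within their SDs. In AAV5-*V1+V2* *Kit* was again first at 12.6 ± 0.925 CPM per kb, the proteases lay between 3.58 and 3.90, *Hdc* was at 1.54 ± 0.455, *Ms4a2* at 0.473 ± 0.168 and *Fcer1a* at 0.309 ± 0.0388 CPM per kb. The order of the 4 proteases among themselves changed, within their SDs, and that of the other members did not.

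Of 58 other genes of mast cell pathways, grouped in 6 lists by function, 53 were tested, of which 25 were called higher and 0 lower by edgeR (32 and 0 at an unadjusted p under 0.05, 28 and 0 with DESeq2). Of all genes tested, 10.1% were called higher and 5.27% lower, the shares to set beside this count and those of the lists below. The median log2 fold change of the 53 genes was 0.64, against 0.00 for all genes. Most of these genes are shared with other white blood cells, and the lists differed widely. With 1 AAV5-*Gfp* library left out edgeR called 3 higher without replicate 1, 0 without replicate 2 and 0 without replicate 3, while 28 to 29 had an unadjusted p under 0.05. Calls in the whole table dropped with them, to 257 higher without replicate 1, 12 without replicate 2 and 15 without replicate 3. Leaving out replicate 2 of AAV5-*V1+V2* gave 15, and leaving out replicate 1, which stood apart, gave 25.

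The other granule genes divided by how widely they are used. Of 9 listed, 7 were tested, 2 were called higher and 0 lower, and the median log2 fold change was 0.41. The 2 were *Srgn*, serglycin, the proteoglycan core of granules in many white blood cells, with 399, 368 and 320 reads in AAV5-*Gfp* and 1265, 739 and 675 in AAV5-*V1+V2* (log2 fold change 1.27 ± 0.25, edgeR, adjusted p = 0.0227), and *Cd63*, a tetraspanin of granule and lysosome membranes in many cell types (0.60 ± 0.12, adjusted p = 0.0243). *Ndst2*, which sulfates heparin (0.41, adjusted p = 0.0851), and *Ctsg*, cathepsin G, shared with neutrophils (0.68, adjusted p = 0.274), did not pass. Chosen after their values were seen, the tryptases *Tpsab1* (76, 51 and 36 reads against 51, 40 and 56) and *Tpsg1* (28, 26 and 15 against 18, 23 and 19) had log2 fold changes of -0.18 (adjusted p = 0.680) and -0.23 (adjusted p = 0.598). The 2 mucosal mast cell proteases of the list, *Mcpt1* and *Mcpt2*, had at most 3 reads in a library and were not tested.

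The signalling chain below FcεRI gave the most calls. All 14 listed genes were tested, 11 were called higher and 0 lower, and the median log2 fold change was 1.82. The 4 with the smallest p were the phosphatases *Inpp5d* (1.72) and *Ptpn6* (2.35), the exchange factor *Vav1* (2.25) and the phospholipase *Plcg2* (1.81), with adjusted p from edgeR of 0.0144 to 0.0149. The receptor's gamma chain *Fcer1g*, named after its values were seen because it completes the receptor, had 126, 126 and 99 reads in AAV5-*Gfp* and 843, 411 and 297 in AAV5-*V1+V2* (log2 fold change 2.12 ± 0.39, adjusted p = 0.0191). It is shared with the Fc receptors of macrophages, neutrophils and natural killer cells. The alpha and beta chains, whose values are given above, were not called.

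**Figure D3:**
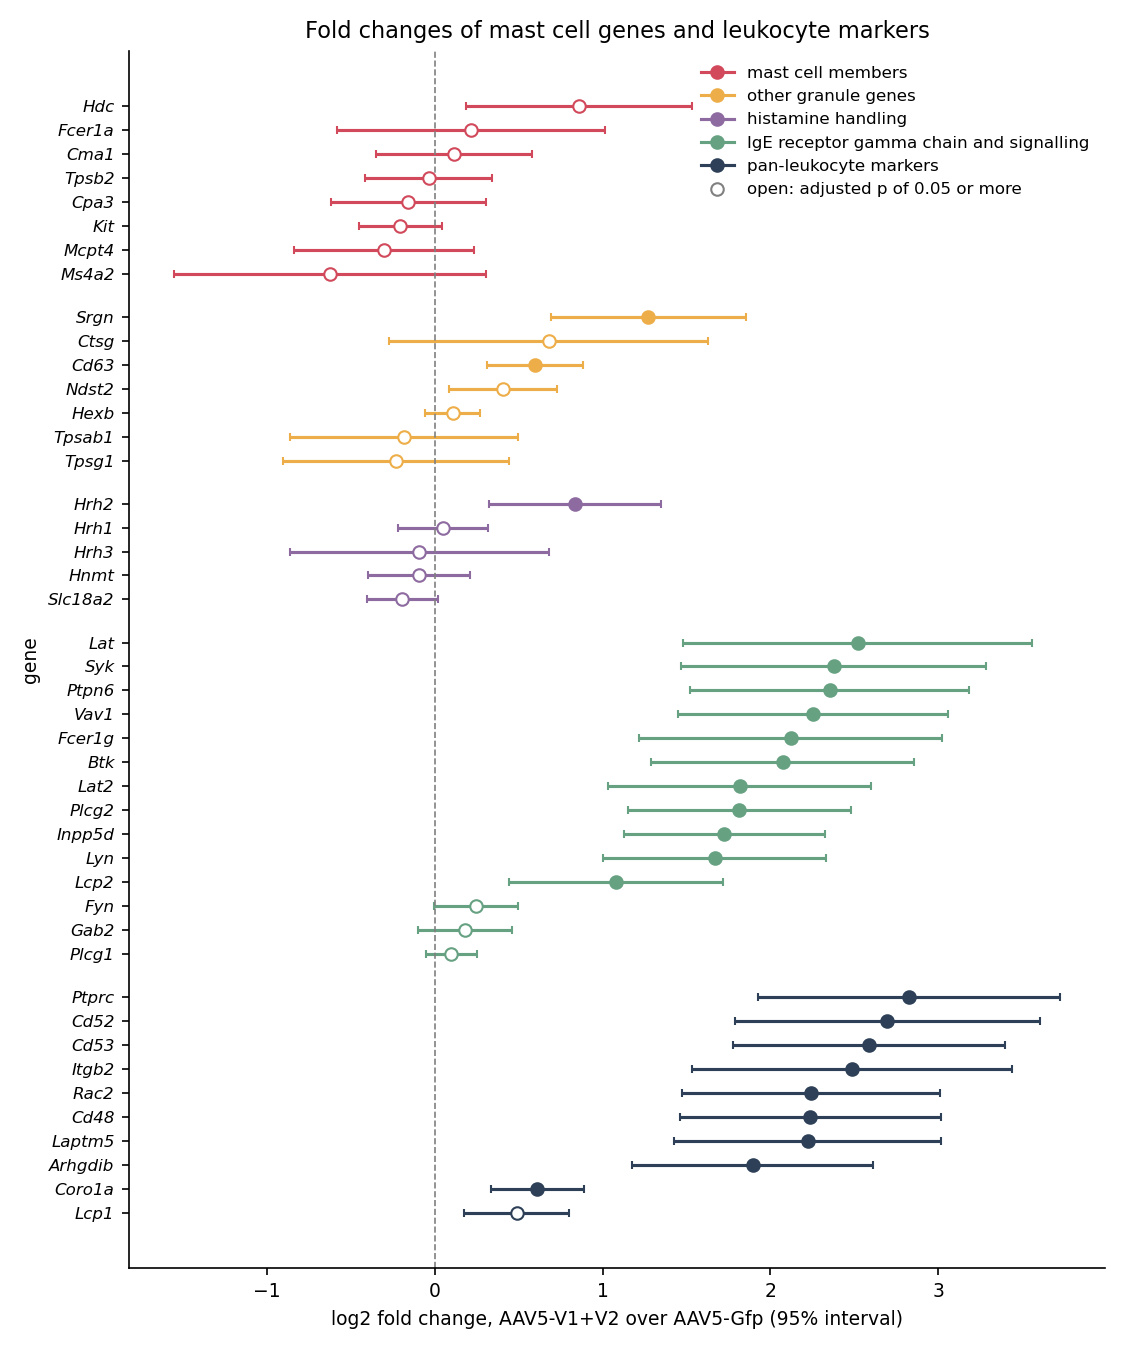
Log2 fold change of AAV5-*V1+V2* over AAV5-*Gfp* (horizontal axis) with its 95% confidence interval for each member and each tested gene of the other granule, histamine, FcεRI signalling and leukocyte lists. Filled points have an adjusted p under 0.05 (edgeR) and open points do not; all 8 members are open, and 11 of 14 FcεRI signalling genes and 9 of 10 leukocyte markers are filled on the higher side.

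Of 13 genes for growth factors, receptors and transcription factors of mast cells, all were tested, 5 were called higher and 0 lower, with a median log2 fold change of 0.64. *Il9r*, the receptor for the mast cell growth factor IL-9, had 4, 3 and 3 reads in AAV5-*Gfp* and 23, 21 and 25 in AAV5-*V1+V2* (log2 fold change 2.71 ± 0.31, edgeR, adjusted p = 0.0139), low counts with no overlap. *Csf2rb*, the shared beta chain of the IL-3 and GM-CSF receptors (2.23, adjusted p = 0.0199), *Il33*, an alarmin that activates mast cells (0.69, adjusted p = 0.0281), and the adaptor *Sh2b3* (0.72, adjusted p = 0.0399) rose too. Named after its values were seen, *Kitl*, which encodes stem cell factor, had 1958, 2172 and 2097 reads in AAV5-*Gfp* and 1640, 1989 and 2049 in AAV5-*V1+V2* (-0.17 ± 0.09, adjusted p = 0.217).

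Beside *Hdc*, 7 genes of histamine transport, breakdown and reception were listed and 5 were tested, of which 1 was called higher and 0 lower, with a median log2 fold change of -0.09. The H2 receptor gene *Hrh2* rose from 3.48 ± 0.167 to 6.21 ± 1.91 CPM (log2 fold change 0.83 ± 0.22, edgeR, adjusted p = 0.0445). *Slc18a2*, the transporter that loads histamine and other monoamines into granules (-0.19, adjusted p = 0.170), *Hnmt*, which methylates histamine (-0.10, adjusted p = 0.623), and the H1 receptor gene *Hrh1* (0.05, adjusted p = 0.794) were not called.

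Of 7 genes for lipid mediators, all tested, 4 were called higher and 0 lower: *Alox5ap*, the 5-lipoxygenase activating protein (log2 fold change 1.31, edgeR, adjusted p = 0.0307), the cyclooxygenases *Ptgs2* (1.49, adjusted p = 0.0360) and *Ptgs1* (0.51, adjusted p = 0.0383), and the prostaglandin D synthase *Hpgds* (0.81, adjusted p = 0.0408). The median of the list was 0.81. Of 8 surface receptors 7 were tested, and 2 were called higher and 0 lower, *Tlr4*, the receptor for lipopolysaccharide (0.46, adjusted p = 0.0225), and *Il4ra*, a chain of the IL-4 receptor (0.76, adjusted p = 0.0364), with a list median of 0.22. *Cd33* (1.03, adjusted p = 0.0728) and *P2rx7*, an ATP-gated channel (0.22, adjusted p = 0.286), did not pass. *Mrgprb2*, the mast cell receptor for basic secretagogues and named after its values were seen, had 17, 8 and 5 reads in AAV5-*Gfp* and 11, 9 and 14 in AAV5-*V1+V2* (adjusted p = 0.849).

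The members were then set against white blood cells as a whole. Of 10 general leukocyte markers 9 were called higher and 0 lower by edgeR, with a median log2 fold change of 2.24 and a summed level of 272 to 299 CPM in AAV5-*Gfp* and 554 to 1098 CPM in AAV5-*V1+V2*. The smallest p-values were those of *Cd53*, *Ptprc*, *Cd52* and *Rac2* (log2 fold changes 2.59, 2.83, 2.70 and 2.24, adjusted p = 0.0144 each). *Ptprc*, which encodes CD45, the phosphatase on the surface of white blood cells, had 1289, 963 and 811 reads in AAV5-*Gfp* and 11917, 5400 and 4804 in AAV5-*V1+V2*.

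Per 100 *Ptprc* reads, *Cpa3* had 16.4, 23.9 and 19.2 reads in AAV5-*Gfp* and 1.14, 3.54 and 4.58 in AAV5-*V1+V2*, which is 0.135-fold of the AAV5-*Gfp* value. Per 100 *Ptprc* reads *Kit* stood at 0.132-fold of its AAV5-*Gfp* value, *Mcpt4* at 0.124-fold, *Tpsb2* at 0.148-fold and *Cma1* at 0.166-fold. *Ms4a2* stood at 0.0998-fold, *Fcer1a* at 0.181-fold and *Hdc* at 0.274-fold, the value nearest to 1 of the 8. These folds largely restate the rise of *Ptprc* itself: over all 18592 other genes tested the median ratio to *Ptprc* was 0.152-fold (with 0.5 reads added to each count), and 97.7% of these genes had ratios that did not overlap between groups, as did all 8 members. The ratios are given as a description, with no test.

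Mast cells of ganglia lie in connective tissue, and 3 of 10 fibroblast markers were called higher and 0 lower by edgeR, with a median log2 fold change of 0.47 and a summed level of 1300 to 1684 CPM in AAV5-*Gfp* and 2014 to 2983 CPM in AAV5-*V1+V2*. The 3 were *Col3a1* (0.90, adjusted p = 0.0146) and *Col1a2* (0.84, adjusted p = 0.0425), fibrillar collagens, and *Dpt*, dermatopontin (1.84, adjusted p = 0.0164). Per 100 reads of *Dcn*, a fibroblast proteoglycan gene that was not called (0.22, adjusted p = 0.303), *Cpa3* had 1.18 to 1.29 reads in AAV5-*Gfp* and 0.728 to 1.19 in AAV5-*V1+V2*. The ratio to *Dcn* did not overlap between groups for 1 of the 8 members (*Mcpt4*, 0.924 to 1.11 against 0.583 to 0.912), where 38.3% of all other genes tested did not overlap. Red blood cell markers (5) and glial markers (8) held no gene called in either direction by edgeR.

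**Figure D4:**
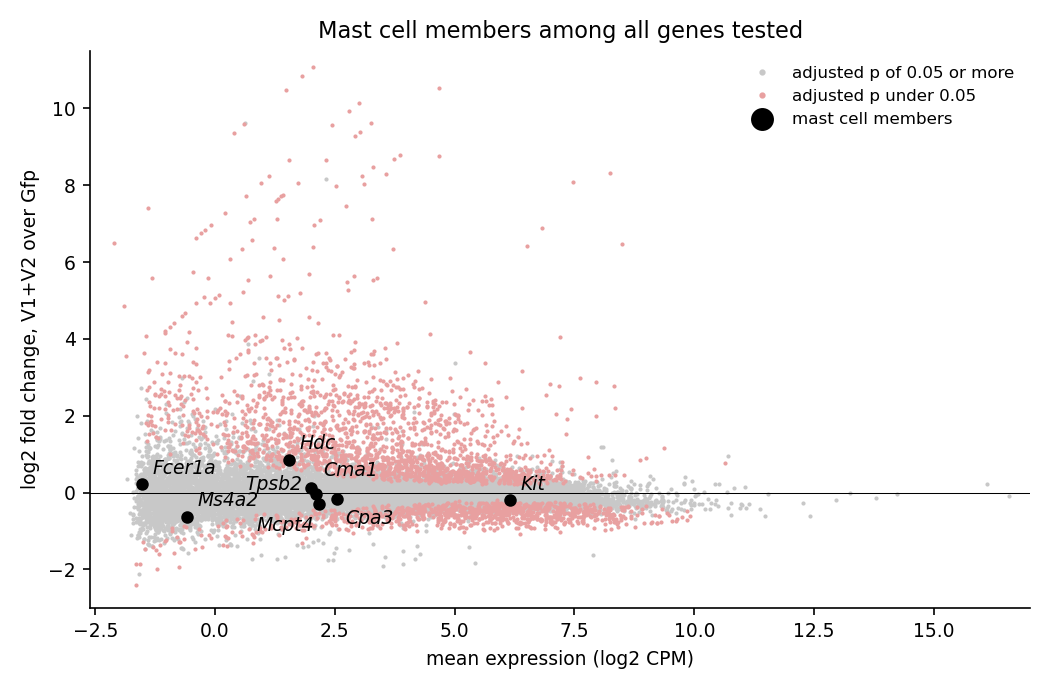
Log2 fold change of AAV5-*V1+V2* over AAV5-*Gfp* (vertical axis) against mean level in log2 CPM (horizontal axis) for the 18593 genes tested, with the 8 members marked. The members lie from -0.63 (*Ms4a2*) to 0.86 (*Hdc*) on the vertical axis, and none carries an adjusted p under 0.05.

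The genes whose log2 CPM followed that of *Cpa3* most closely over the 6 libraries were *Fbxl16* (Pearson's r = 0.996), *Trim23* (0.994), *Ctsf* (0.993), *Use1* (0.989) and *Cav1* (0.989), among 14496 genes compared. With so few libraries 71 genes had r above 0.95, and all share the composition of the libraries. After the group means were subtracted, the closest were *Zfp12* (r = 1.00), *Tmem167b* (0.998), *Akr1a1* (0.996), *Use1* (0.996) and *Gatm* (0.996), and 193 genes exceeded 0.95. The other members were left out of this ranking. Of them *Tpsb2* followed *Cpa3* most closely (r = 0.974, and 0.997 after the group means were subtracted). *Hdc* was the most unlike (-0.825 and -0.941).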

How the data were processed

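RNA of microinjected DRGs was sequenced after a stranded total RNA library kit, 3 libraries per group. The authors deposited raw counts per gene, unnormalized, in 1 table of 48440 rows. Its mouse build is GRCm38 (mm10) per the labels. Aligner, annotation, read length and the use of strand in counting are not given in the sources used here. Columns were assigned to libraries by their names, and groups follow the sample labels.

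Genes were kept with edgeR's filterByExpr, leaving 18593. Library totals of 32025612 to 34764282 were scaled by TMM, and groups were compared with the quasi-likelihood test without covariates (edgeR 4.0.16, R 4.3.3, Benjamini-Hochberg adjusted p under 0.05). Standard errors were taken from the F statistic. Alternatives used DESeq2 1.42.0, limma-voom (limma 3.58.1), other scalings, filters and thresholds, the replicate number as a block, and each library left out. The scripts were tested on simulated data. Replicates of a group differed beyond sampling noise in all 6 pairs (chi-square per degree of freedom 8.83 to 52.8).

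All 8 members are named, and by rule at most 4 genes of each other list, those with the smallest p. Outside this rule stand *Gata2*, *Dcn*, genes marked as named or chosen after their values were seen, and some untested genes. Members and lists were chosen with earlier results of these data known. For likeness to *Cpa3*, a mean log2 CPM of 1 or more was required. Sequences come from GRCm38 and RefSeq.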

Additional observations from a re-analysis of the deposited data

How the results depend on the processing

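Under the 15 alternatives no member was called lower, and the number called higher was 1 (*Hdc*) at an unadjusted p under 0.05, with DESeq2 and without AAV5-*V1+V2* replicate 3, and 0 otherwise; over the left-out libraries it ranged from 0 to 1. Without single libraries the median log2 fold change of the members was -0.18 to 0.04, and the number of other mast cell genes called higher, 25, became 0 to 27. The log2 fold change of *Tpsb2* turned to 0.019 with total counts only. Without single libraries those of *Tpsb2* (-0.12 to 0.080), *Cma1* (-0.040 to 0.21) and *Cpa3* (-0.29 to 0.0072) changed sign; the cause was not tested. Total counts alone moved the median of all genes to 0.06.

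With the replicate block 0 members and 27 other mast cell genes were called higher, and 2118 genes in the whole table against 1872. The deviations of same-numbered libraries from their group means correlated at 0.041, 0.062 and 0.096. The numbers are therefore not taken to pair the libraries. Each of the 6 libraries correlated best with its own number in the other group, a hint from the data and not from the design. These 6 matches are read from the same correlations and are not independent of each other. Counts of 6 to 31 reads limit *Fcer1a* and *Ms4a2*.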

Other observations

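Genes of IgE and type 2 immunity were measured beside the mast cell genes. *Fcer2a*, the low-affinity IgE receptor of B cells, had 42, 35 and 32 reads in AAV5-*Gfp* and 290, 138 and 145 in AAV5-*V1+V2* (log2 fold change 2.36 ± 0.34, SE, edgeR, adjusted p = 0.0144). *Ighe*, the IgE heavy chain, had 0, 0 and 0 reads in AAV5-*Gfp* and 6, 4 and 3 in AAV5-*V1+V2*, too few for the test. *Il5*, a cytokine of type 2 immunity, had 14, 12 and 9 reads against 6, 5 and 8. *Il13* had at most 2 reads in a library, and *Il10*, an anti-inflammatory cytokine, had 7, 2 and 3 reads against 9, 9 and 7. These 4 genes were not tested and were named after their values were seen. Of the 6 genes listed, 2 passed the filter, 1 called higher (*Fcer2a*) and 1 called lower (*Il4*, whose values stand with the basophil markers).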
